A study of Homo sapiens with 42 samples.

Results

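The comparison described here asks what inhibition of FLT3 does to the transcriptome of leukemia cells that are also given everolimus, an inhibitor of mTORC1. Its members are 6 of the 42 RNA-seq libraries of the series, chosen by their labels: 3 input (total poly(A) RNA) libraries of cells given quizartinib plus everolimus (combo) and 3 of cells given everolimus alone. All 6 cultures were of MOLM-13, an acute myeloid leukemia (AML) line with an internal tandem duplication of FLT3 (FLT3-ITD), labelled WT for genotype, and all were kept for 12 hours in hBMSC-CM, RPMI mixed with medium that the human bone marrow stromal line HS-5 had conditioned. Everolimus was at 10 nM in both groups and quizartinib, also called AC220, at 3 nM in combo only, so that the groups differed by quizartinib. Set beside them were 3 vehicle and 3 quizartinib input libraries in the same medium, which carried no everolimus, and the 3 everolimus and 3 combo libraries of heavy polysome RNA, the messages loaded with several ribosomes. MOLM-13 is 1 cell line, so the values say nothing of the spread between leukemias.

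FLT3 is a receptor tyrosine kinase of early blood cells. Its duplication form signals without ligand through STAT5, through RAS and ERK, and through PI3K and AKT, and drives growth of the leukemia. mTORC1 lies downstream of AKT and promotes translation, above all of messages with a 5′ terminal oligopyrimidine tract such as those of ribosomal proteins, and everolimus inhibits it by binding FKBP12. Quizartinib blocks the FLT3 kinase itself and so acts upstream of several branches that everolimus leaves alone.

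The 6 libraries held 27.3 to 32.8 M counts each, and 20376 to 21475 gene names had a count. MOLM-13 genes were present in both groups: 14 of 14 myeloid leukemia markers, CD33, HOXA9, MEIS1 and SPI1 among them, had counts and summed to 3680 to 3810 CPM (here counts scaled to the raw library size) under everolimus and 3080 to 3800 under combo. The lowest marker, KIT, was nearly absent, at 0 to 0.695 CPM under everolimus and 0.336 to 1.6 CPM under combo. The 3 everolimus libraries stood apart by how alike they were. Their biological coefficient of variation, the spread between cultures beyond counting error, was 0.0674 to 0.0736 per pair, against 0.145 to 0.359 in the 18 pairs of the other input groups and 0.18 to 0.269 within combo. They still differed by more than sampling noise (chi-square per degree of freedom 4.96 to 7.51) and were kept as 3 samples. Labels do not say whether they came from separate cultures. The study's checklist describes all its replicates as biological, and its polysome profiling had a smaller n for everolimus than for the other groups. The test takes its spread from all 14 groups. If the 3 libraries were repeats of 1 culture, p-values would count that culture as 3 samples. Counts are therefore also given with the 3 everolimus libraries averaged into 1 sample, an alternative added after the data were seen. Combo cultures deviated from their group mean together with the quizartinib and vehicle cultures of the same number but not with the everolimus cultures, so a difference in how the everolimus cultures were handled cannot be told apart from the effect of quizartinib.

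Adding quizartinib to everolimus changed 1437 of 12939 genes tested, which is 11.1% (edgeR's quasi-likelihood test, Benjamini-Hochberg adjusted p under 0.05). Of these 461 genes (3.56%) were higher and 976 (7.54%) lower in combo, while the median log2 change of all genes tested was 0.02. The values of the 3 combo and 3 everolimus cultures did not overlap for 45.9% of genes, 21.2% higher and 24.6% lower. With the everolimus libraries averaged into 1 sample, 215 genes passed, 7 higher and 208 lower, all of them among the 1437. Without everolimus culture 1, 2 or 3 the counts were 836, 869 and 803, and without combo culture 1 or 2 they were 851 and 941. Every change is relative to the other messages of a library, and in bulk RNA fewer cells that express a gene cannot be told apart from less of its RNA per cell.

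**Figure D1:**
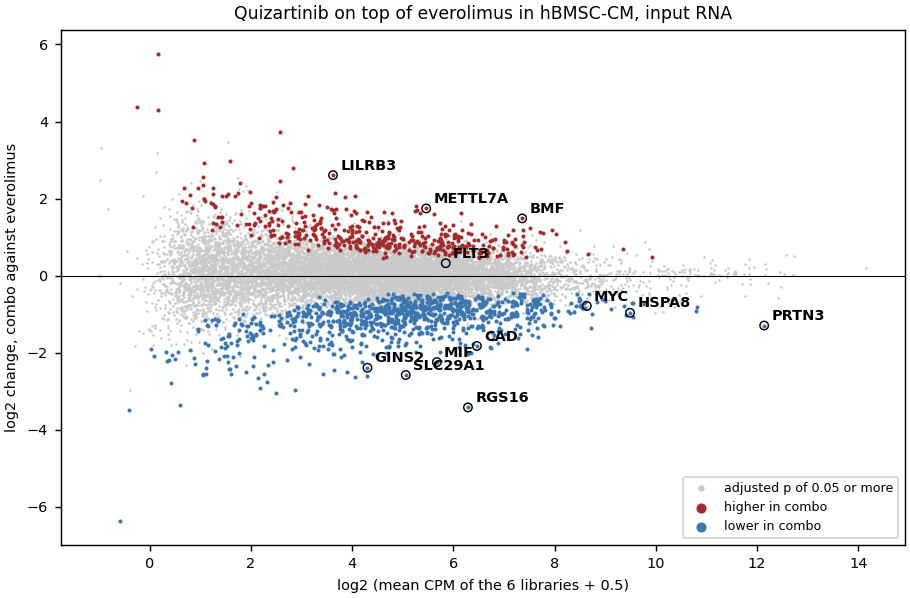
Log2 change of each gene tested between combo and everolimus (vertical axis) against its mean level in the 6 input libraries (horizontal axis, log2 of CPM plus 0.5), with genes at an adjusted p under 0.05 in red (461 higher) or blue (976 lower). RGS16 lies far down at -3.42, LILRB3 far up at 2.61, and FLT3 sits inside the grey genes.

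The largest fall among genes with at least 10 CPM was in RGS16 (ENSG00000143333, chromosome 1, 182598623 to 182604389, minus strand, GRCh38), which encodes a regulator that speeds the shut-off of G protein signalling. RGS16 stood at 134, 145 and 147 CPM in the everolimus cultures and at 8.72, 14.2 and 16.8 CPM in the combo cultures. Every combo value lay far under every everolimus value, a 10.7-fold fall (log2 change -3.42, SE 0.35, edgeR adjusted p 8.54e-08). SLC29A1, the equilibrative nucleoside transporter that also carries cytarabine into cells (ENSG00000112759, chromosome 6, 44219553 to 44234142, plus strand), went from 55.8, 57.3 and 55.9 CPM to 6.64, 11 and 10.6 CPM (-2.58, SE 0.35, edgeR adjusted p 5.19e-06). MIF, a cytokine that also binds the coreceptor CD74, held 82.8 to 84 CPM under everolimus and 13.5, 17.6 and 21.7 CPM under combo (-2.25, edgeR adjusted p 1.29e-05). The other genes among the 10 largest falls were B4GALT2 (-2.62), NME1 (-2.60), NCS1 (-2.54), SLCO4A1 (-2.50), ETV4 (-2.46), GINS2 (-2.39) and CDC25A (-2.24), and all 10 passed in every alternative tried, the averaged everolimus sample included.

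Rises were smaller and less secure. LILRB3, an inhibitory immunoglobulin-like receptor of myeloid cells (ENSG00000204577, chromosome 19, 54216278 to 54223506, minus strand), rose from 3.83, 3.63 and 2.51 CPM to 16.7, 17 and 27.2 CPM (log2 change 2.61, SE 0.55, edgeR adjusted p 0.00141). METTL7A, a methyltransferase of lipid droplets and the endoplasmic reticulum, rose from 19.8 to 20.3 CPM under everolimus to 58.5 to 75.8 CPM under combo (1.74, SE 0.28, edgeR adjusted p 5.15e-05). The lowest combo culture was thus well above the highest everolimus culture. The other 8 of the 10 largest rises were AC132872.1 (a long noncoding RNA, 2.13), SYTL3 (2.08), ISG20 (2.03), SLC5A3 (1.80), MMP19 (1.78), CREBRF (1.74), EPAS1 (1.74) and TRANK1 (1.72). Of these 10, METTL7A alone also passed with the everolimus libraries averaged into 1 sample (adjusted p 0.0402). LILRB3 belongs to a family of near-identical receptors whose reads the counting could split.

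DNA replication genes fell together. Of 42 such genes, all of them tested, 35 were lower and 0 higher in combo, where 7.54% of all genes were lower, with a median log2 change of -1.34. The values of 40 were lower without overlap, as were those of 24.6% of all genes. Single combo cultures gave list medians of -1.39, -1.22 and -1.28 against the mean of the everolimus cultures. Counting the everolimus libraries as 1 sample left 19 lower. GINS2, a subunit of the helicase that unwinds DNA at replication forks, went from 31.6, 29.9 and 35.5 CPM to 5.23, 6.7 and 6.53 CPM (log2 change -2.39, SE 0.25, edgeR adjusted p 9.5e-08). All combo values lay well under the lowest everolimus value. CDC25A, the phosphatase that activates CDK2 for entry into S phase, went from 27.8, 33.3 and 26.7 CPM to 6.05, 7.56 and 5.03 CPM (-2.24, SE 0.23, edgeR adjusted p 8.54e-08). CCNE1, the cyclin partner of CDK2, fell by 2.12, MCM2 of the replicative helicase by 1.99, and RRM2, the small subunit of ribonucleotide reductase, by 1.18 on the log2 scale. Of 31 genes of G2 and mitosis 2 were lower, a share near the 7.54% of all genes: the checkpoint gene MAD2L1 (-0.77) and the kinase AURKB (-0.69), and the list median was -0.15.

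Promoters of the replication genes held the E2F motif more often than promoters at large. Windows from 250 bases before to 50 bases after each RefSeq start (GRCh38.p14) were searched on both strands for TTTCCCGC or TTTGGCGC. A match was found in 18 of the 37 replication genes with a window (48.6%), in 2.31% of all 27305 promoters, in 3.97% of the 8943 genes tested that had a window and in 8.12% of the 727 genes called lower that had one. These letters, chosen after earlier results were known, describe the windows and not a bound factor. The promoters of the 2 replication genes that fell most are shown from 5′ to 3′ on the gene's strand, with the match in capitals. GINS2 lies at chr16:85688905-85689204 (minus strand) and CDC25A at chr3:48188368-48188667 (minus strand).
GINS2: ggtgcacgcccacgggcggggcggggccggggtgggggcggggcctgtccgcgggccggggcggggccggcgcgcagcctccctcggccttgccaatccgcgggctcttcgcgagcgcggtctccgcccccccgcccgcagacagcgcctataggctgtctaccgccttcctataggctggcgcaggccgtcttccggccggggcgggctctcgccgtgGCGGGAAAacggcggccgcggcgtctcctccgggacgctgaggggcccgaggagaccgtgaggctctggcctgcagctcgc
CDC25A: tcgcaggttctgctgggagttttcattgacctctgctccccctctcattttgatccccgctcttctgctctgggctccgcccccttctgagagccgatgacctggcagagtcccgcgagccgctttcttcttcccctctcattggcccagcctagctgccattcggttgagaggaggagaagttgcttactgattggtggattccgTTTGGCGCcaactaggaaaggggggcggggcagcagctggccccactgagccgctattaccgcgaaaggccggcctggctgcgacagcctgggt
The GINS2 match is the reverse complement of TTTCCCGC and starts at position -31 from the start site, and the CDC25A match starts at -44.

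Genes that make ribosomes fell as widely. Of 39 tested ribosome biogenesis factors (40 listed), 34 were lower and 0 higher, with a median log2 change of -1.13, and 38 were lower without overlap (7.54% and 24.6% of all genes). Counting the everolimus libraries as 1 sample left 9 lower. BOP1, a factor for the large ribosomal subunit, went from 283, 272 and 274 CPM to 55.3, 73.3 and 92.8 CPM (log2 change -1.91, SE 0.27, edgeR adjusted p 9.4e-06). NOP56, a core protein of box C/D small nucleolar ribonucleoproteins, went from 266, 253 and 256 CPM to 75, 96 and 123 CPM (-1.40, SE 0.23, edgeR adjusted p 8.97e-05). The 3 combo cultures were spread by more than the everolimus cultures but stayed under them in both genes. MRTO4 and MYBBP1A fell by 1.76 each. Messages of the ribosomal proteins did not follow in input RNA: 0 of 38 passed in either direction, the median was 0.03, and RPL8, the most abundant, stood at 6185, 6337 and 6246 CPM under everolimus and 5126, 4131 and 5992 CPM under combo.

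Enzymes of purine, pyrimidine and one-carbon synthesis were lower in 14 of 19 cases and higher in 0 (median -0.99), and 7 were lower with the everolimus libraries as 1 sample. CAD, which carries out the first steps of pyrimidine synthesis, went from 140, 126 and 145 CPM to 32.5, 38.6 and 44.7 CPM (log2 change -1.83, SE 0.27, edgeR adjusted p 1.79e-05). MTHFD1L, a mitochondrial folate enzyme, went from 84.8, 78.6 and 78 CPM to 25.7, 27.8 and 26.7 CPM (-1.59, SE 0.21, edgeR adjusted p 4.07e-06). PFAS of purine synthesis fell by 1.62. The share of all genes called lower was 7.54%.

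Many ribosome biogenesis and nucleotide genes are bound by MYC, the oncogenic transcription factor, in proliferating cells. MYC itself stood at 495, 499 and 517 CPM under everolimus and at 274, 291 and 310 CPM under combo, lower in every combo culture, but did not pass (log2 change -0.79, 95% interval -1.39 to -0.19, edgeR adjusted p 0.0814). It passed in 5 of the 17 alternatives, with adjusted p from 0.000742 to 0.577. Within the 12 tested genes of its network, MXD1, an antagonist that competes for the partner MAX, rose from 82, 90.8 and 94.4 CPM to 209, 217 and 177 CPM (1.17, edgeR adjusted p 0.00236), and MYCL fell from 6.71 to 10.8 CPM to 4.71 to 5.52 CPM (-0.82, edgeR adjusted p 0.0451). The E-box CACGTG that MYC and MAX recognise was in the window of 12 of 33 ribosome biogenesis genes (36.4%) and 5 of 16 nucleotide genes (31.2%), in 7.43% of all promoters, in 10.5% of the genes tested that had a window and in 19.3% of those called lower. Shown are the windows of MYBBP1A (chr17:4555335-4555634, minus strand) and MTHFD1L (chr6:150866236-150866535, plus strand), both among the genes that fell most in their lists, with the E-box in capitals.
MYBBP1A: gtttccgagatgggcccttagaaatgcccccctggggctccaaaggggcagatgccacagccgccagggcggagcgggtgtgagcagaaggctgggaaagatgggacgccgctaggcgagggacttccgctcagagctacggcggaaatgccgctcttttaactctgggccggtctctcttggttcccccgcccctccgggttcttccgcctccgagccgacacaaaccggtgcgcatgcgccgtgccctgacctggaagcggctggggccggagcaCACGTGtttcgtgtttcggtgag
MTHFD1L: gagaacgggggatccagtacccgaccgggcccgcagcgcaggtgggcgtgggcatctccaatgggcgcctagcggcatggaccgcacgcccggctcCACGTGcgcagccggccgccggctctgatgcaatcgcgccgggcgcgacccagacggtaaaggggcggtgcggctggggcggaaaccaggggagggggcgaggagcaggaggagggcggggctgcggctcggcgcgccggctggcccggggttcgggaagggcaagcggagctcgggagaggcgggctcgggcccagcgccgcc
The E-box starts at position 27 in MYBBP1A and at -154 in MTHFD1L, and the same letters in a promoter do not show that MYC binds there. The E-box was also in 9 of 24 windows of the lysosome list (37.5%), which had 0 falls, and the STAT motif TTCNNNGAA in 3 of 11 windows of the STAT5 targets (27.3%) and in 7.88% of all promoters. Only 24 of 35 and 11 of 14 genes of these lists had a window. So did 8943 of the 12939 genes tested and 727 of the 976 called lower. With windows missing in each set, comparisons with these sets, those above for E2F and the E-box included, are uncertain and were not tested.

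**Figure D2:**
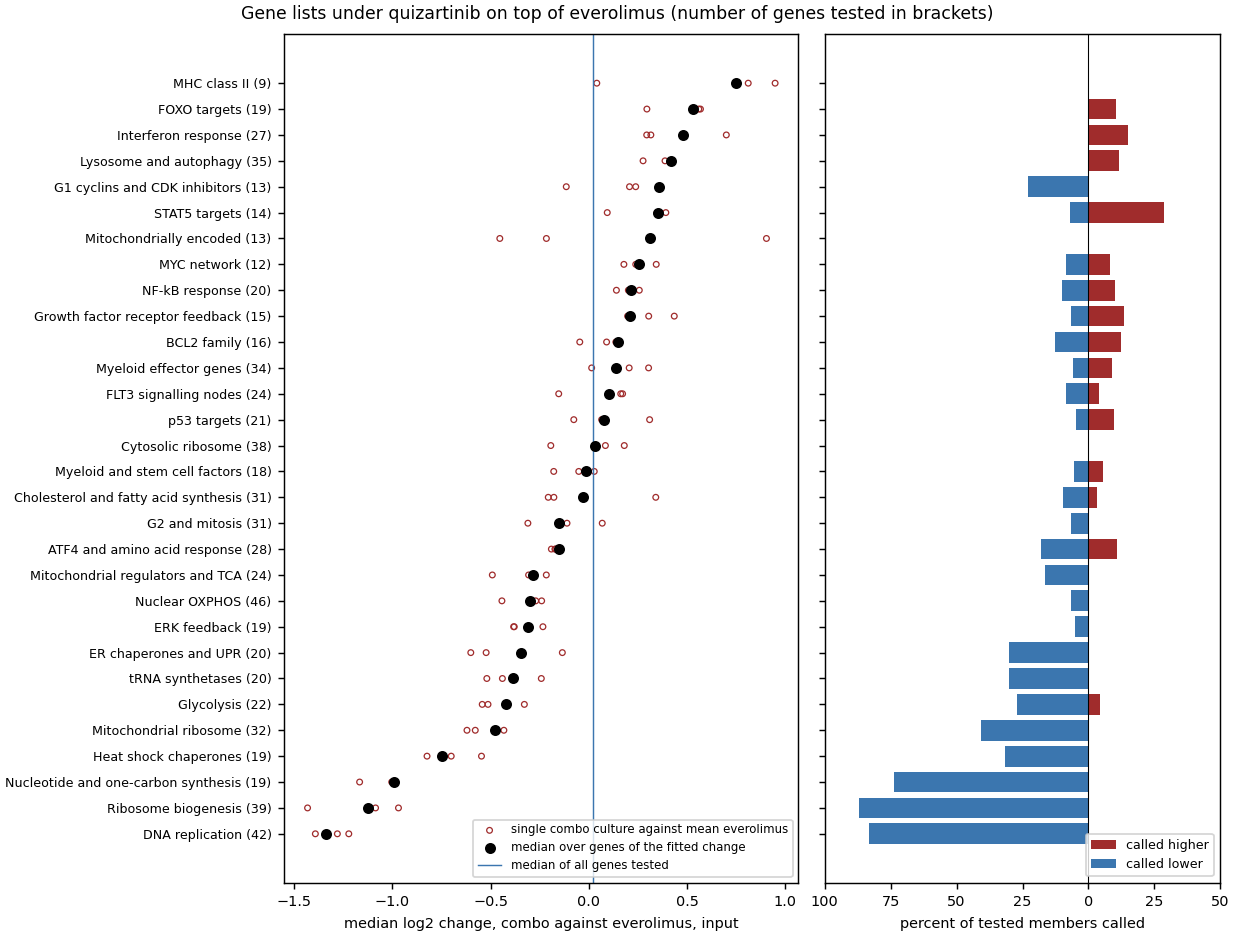
Left, the median log2 change of each gene list between combo and everolimus in input RNA (black), with each of the 3 combo cultures against the mean of the everolimus cultures (open circles). Right, the percent of tested members called higher (red) or lower (blue). DNA replication (median -1.34), ribosome biogenesis (-1.13) and nucleotide synthesis (-0.99) lie lowest, and most upper lists have few calls.

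Machinery for folding and translation fell in part, where 7.54% of all genes were lower and 3.56% higher. Heat shock chaperones were lower in 6 of 19 cases and higher in 0 (median -0.75). HSPA8, the constitutive HSP70, went from 971, 919 and 963 CPM to 651, 458 and 352 CPM (log2 change -0.97, edgeR adjusted p 0.0173). CCT5 of the chaperonin that folds actin and tubulin fell by 0.95 and the cochaperone STIP1 by 0.90. Of 20 tRNA synthetases 6 were lower, led by FARSB, which went from 62.6, 56.7 and 63.5 CPM to 12.8, 15.1 and 18 CPM (-1.99, edgeR adjusted p 8.76e-06), and of 20 chaperones of the endoplasmic reticulum 6 were lower, MANF (-1.11), SDF2L1 (-1.08) and CRELD2 (-0.87) the most. These 3 passed in 10, 10 and 7 of the 17 alternatives. Glycolysis had 6 lower genes of 22 and 1 higher, with GPI (-1.10), the lactate transporter SLC16A1 (-1.02) and LDHA (-0.81) lower and the regulator PFKFB3 higher (0.79, edgeR adjusted p 0.00793, named after its value was seen as the 1 rise).

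Mitochondrial lists differed in their counts. Of 32 mitochondrial ribosomal proteins 13 were lower and 0 higher (median -0.48), MRPL12 (-1.65), MRPL24 (-1.53) and MRPL17 (-1.12) the most. Nuclear subunits of oxidative phosphorylation were lower in 3 of 46 cases, near the 7.54% of all genes, while 24 of 46 were lower without overlap, against 24.6% of all genes. ATP5MC1, a gene for the c ring of ATP synthase, went from 62.3, 60.5 and 64.4 CPM to 13, 17.1 and 22.7 CPM (log2 change -1.82, SE 0.33, edgeR adjusted p 0.000262). NDUFS6 of complex I fell by 0.96 and CYC1 of complex III by 0.75. PPRC1, a coactivator of mitochondrial biogenesis, fell from 106, 104 and 109 CPM to 24.5, 37.4 and 57.6 CPM (-1.42, edgeR adjusted p 0.00171), while its relative PPARGC1A had 8 to 30 counts in the 6 libraries and was too low to test. IDH3A of the TCA cycle went from 32 to 35.3 CPM to 19.4 to 22.3 CPM (-0.71, edgeR adjusted p 0.00523). The 13 messages of the mitochondrial genome had 0 calls. Their share of counts was 3.67% to 4.25% under everolimus and 7.57%, 3.93% and 3.98% under combo (two-sided exact permutation p 0.7, smallest possible 0.1), so combo culture 1 was high. Culture 1 was also the high one under vehicle (7.05%) and quizartinib (8.02%) in the same medium.

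Messages of FLT3 signalling nodes and of ERK readouts had few calls, at shares near or under the 11.1% of all genes called. FLT3 itself held 54.4, 52 and 46.1 CPM under everolimus and 72, 79.5 and 39.1 CPM under combo (log2 change 0.32, 95% interval -0.20 to 0.85, edgeR adjusted p 0.491). Of 24 signalling nodes GAB2, an adaptor to PI3K, was higher (0.74), and EIF4EBP1 (-0.78), the translation repressor that mTORC1 phosphorylates, and RPTOR (-0.57), the scaffold of mTORC1, were lower. MTOR was not called (-0.35, edgeR adjusted p 0.606), nor ATM (0.04, edgeR adjusted p 0.97). ERK readouts had 1 call in 19, with a list median of -0.31. Values of 6 were lower and of 0 higher without overlap, against 24.6% and 21.2% of all genes. ETV4, an ETS factor, fell from 19.4, 18.9 and 22.7 CPM to 2.79, 2.29 and 6.04 CPM (-2.46, SE 0.45, edgeR adjusted p 0.000295). The phosphatase gene DUSP6 had 42.7, 43.1 and 49.5 CPM against 34.6, 37.8 and 77.9 CPM, with combo culture 3 above and the others below the everolimus values (0.15, 95% interval -1.20 to 1.51). SPRY4 (-1.32, edgeR adjusted p 0.281) and ETV5 (-0.50, edgeR adjusted p 0.452) did not pass.

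Targets of STAT5, the factor that FLT3-ITD activates, included more rises than falls: 4 of 14 were higher and 1 lower. The list was not split by whether STAT5 raises or lowers a gene, so this tally does not measure STAT5 activity. Over all genes 3.56% were higher and 7.54% lower. PIM2, a survival kinase, rose from 35.6, 38.6 and 37.9 CPM to 67.9, 67.1 and 93.4 CPM (log2 change 1.03, SE 0.24, edgeR adjusted p 0.00435). MUC1 (1.64), the repressor BCL6 (1.38) and the feedback inhibitor SOCS3 (0.93, edgeR adjusted p 0.00597) were the other rises, and cyclin CCND2 (-0.69) was the fall. PIM1 (0.38), SOCS2 (0.50) and CISH (-0.18) did not pass, at edgeR adjusted p 0.315, 0.112 and 0.516. SOCS3 is named as a call of this short list, after its value was seen. Of 19 FOXO targets BCL6, which is in both lists, and PIK3IP1 (1.11), an inhibitor of PI3K, were higher. When the everolimus libraries counted as 1 sample, 0 STAT5 and 0 FOXO targets passed.

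**Figure D3:**
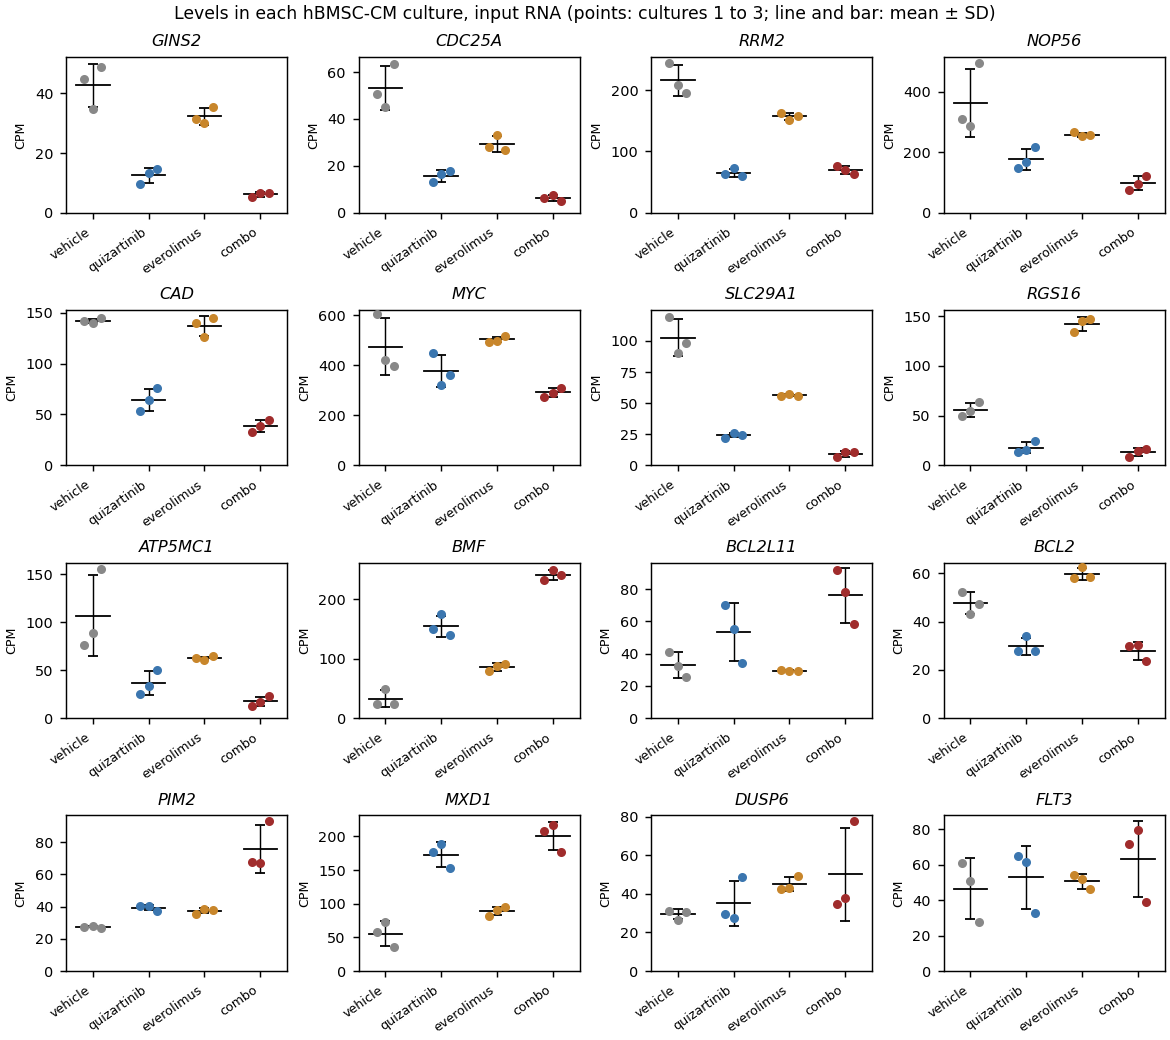
Levels (CPM) of 16 genes in each hBMSC-CM culture under vehicle, quizartinib, everolimus and combo, input RNA, with points for the 3 cultures and a line and bar for mean ± SD. Everolimus points lie close together in nearly every panel, and in GINS2, CAD, SLC29A1 and RGS16 the combo points lie under all everolimus points, while those of DUSP6 and FLT3 overlap.

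The BCL2 family, which sets the threshold for mitochondrial apoptosis, had calls on both sides: of 16 members 2 were higher and 2 lower. Among all genes 3.56% were higher and 7.54% lower. BMF, a BH3-only killer protein, rose from 79.3, 87.5 and 91.9 CPM to 233, 250 and 241 CPM (log2 change 1.48, SE 0.32, edgeR adjusted p 0.00161). BCL2L11, which encodes the BH3-only protein BIM, rose from 30, 29.1 and 29.5 CPM to 92, 77.9 and 58.3 CPM (1.36, SE 0.27, edgeR adjusted p 0.000663). Both sets of combo values were above all everolimus values. BCL2, the founding survival protein, fell from 58.1, 62.5 and 58.3 CPM to 30.1, 30.1 and 23.5 CPM (-1.09, SE 0.16, edgeR adjusted p 2.58e-05), and BID, a BH3-only protein on the killing side, fell by 1.24. MCL1, a short-lived survival protein, was at 183, 180 and 169 CPM against 192, 193 and 183 CPM (0.10, 95% interval -0.23 to 0.42, edgeR adjusted p 0.78). BCL2 and BID passed with the everolimus libraries as 1 sample, and BMF (adjusted p 0.174) and BCL2L11 (0.123) did not.

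Cell cycle brakes and stress genes held calls in both directions, where 11.1% of all genes were called. Of 13 G1 regulators CDK4 (-1.37), the pocket protein gene RBL1 (-1.20) and CCND2 were lower and 0 higher; CCND3 (-0.33) and CDKN1B (0.44), which encodes the inhibitor p27, did not pass, at edgeR adjusted p 0.3 and 0.357. Of 21 p53 targets TP53INP1 (1.56) and BTG2 (1.14) were higher and the nuclease gene AEN (-1.02) lower. ATF4 targets were 3 higher and 5 lower of 28. The cystine transporter SLC7A11 rose from 14.3, 14.2 and 18.7 CPM to 35.7, 49.2 and 37.2 CPM (1.37, edgeR adjusted p 0.00141), and the leucine transporter SLC7A5 fell from 218, 209 and 218 CPM to 76.8, 91.4 and 97 CPM (-1.28, edgeR adjusted p 0.000351). DDIT4, an inhibitor of mTORC1 signalling, rose from 82.2 to 94 CPM to 155, 143 and 245 CPM (1.05, edgeR adjusted p 0.00318). Lipid synthesis had FASN (-1.51), ELOVL6 (-0.73) and 1 more gene lower and ACSS2 (0.97) higher of 31.

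Myeloid, immune and lysosomal genes were higher in smaller numbers, where 3.56% of all genes were higher and 7.54% lower. Of 34 myeloid effector genes 3 were higher, S100A9 (1.14), the receptor CSF1R (0.93) and TLR4 (0.91, edgeR adjusted p 0.00662), and 2 lower, the granule protease PRTN3 (-1.30) and lysozyme gene LYZ (-0.71). LYZ kept its call in 6 of 17 alternatives, S100A9 in 10 and PTPRC in 8. The leukocyte gene PTPRC (CD45), among the MOLM-13 markers, rose by 1.28 (66.7, 65.5 and 66.4 against 208, 195 and 80.3 CPM). PRTN3 went from 6189, 6429 and 6645 CPM to 1692, 2808 and 3338 CPM. Among transcription factors CEBPB (0.76) was higher and IRF8 (-0.98) lower. Of 27 interferon-stimulated genes 4 were higher and 0 lower: ISG20, SAMD9L (1.66), OAS1 (1.37) and MX2 (1.06, edgeR adjusted p 0.000418). Lysosome and autophagy genes were higher in 4 of 35 cases and lower in 0, with GABARAPL1 (1.28), WIPI1 (1.23) and CTSL (0.97) among the rises, and 20 of the 35 had all combo values above all everolimus values, where 21.2% of all genes did. Of 9 MHC class II genes 0 passed (median 0.75). Their regulator CIITA stood at 2.74, 3.87 and 4.03 CPM against 5.11, 6.6 and 7.31 CPM (0.84, edgeR adjusted p 0.138). Among 20 NF-kB genes TNF (-1.65) and CD83 (-1.17) were lower and TNFAIP2 (1.28) and ICAM1 (0.96) higher, and among 15 growth factor receptor and feedback genes CSF1R and IFNGR1 (0.63) were higher and PDGFA (-1.19) lower. TLR4, MX2 and ICAM1 are named as calls of short lists after their values were seen.

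Markers of other cells were low. Of 22 stromal markers 9 were at 0 in all 6 libraries, COL3A1, LUM, DCN, POSTN and THY1 among them, and the list summed, by raw library size, to 16.3 to 17.3 CPM under everolimus and 21.2, 47.8 and 32.7 CPM under combo (two-sided exact permutation p 0.1, the smallest possible). COL1A1, the collagen gene, was higher in combo (2.01, 1.71 and 1.27 against 3.79, 20.3 and 10.6 CPM, log2 change 2.79, edgeR adjusted p 0.00623), as was TAGLN (1.06, edgeR adjusted p 0.02), named after its value was seen. On the raw scale of the list sums COL1A1 stood at 25.2 CPM in combo culture 2. COL1A1 lost its call without combo culture 2 and with the everolimus libraries averaged (log2 changes over all alternatives 2.11 to 3.19). The part of these markers in the other changes was not tested. Markers of lymphoid, erythroid and epithelial cells summed to 91.6 to 95.9 CPM against 103 to 208 CPM, nearly all of it NKG7 (0.66, edgeR adjusted p 0.422), while CD3E, HBB, EPCAM and KRT19 were at 0.

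The effect of quizartinib on top of everolimus was then set beside its effect without everolimus. In hBMSC-CM without everolimus, quizartinib against vehicle changed 1591 genes (12.3%), 706 higher (5.46%) and 885 lower (6.84%). With the replicate number as a block, which those groups share, the count was 2678, and it was 3803 with a block within each fraction. The 2 comparisons share no library. Both called 924 genes, all 924 in the same direction, which is 64.3% of the calls with everolimus and 58.1% of those without. Of the 1437 genes called with everolimus 1425 had the same sign without it. Genes lower with everolimus had medians of -1.03 with and -0.85 without it, and genes higher had 1.00 and 0.92. These genes were selected by their calls with everolimus, which favors larger values there, so the medians do not compare the sizes of the effects. Across all 12939 genes, which are not independent replicates, Pearson's r of the log2 changes was 0.78 and Spearman's rho 0.78.

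**Figure D4:**
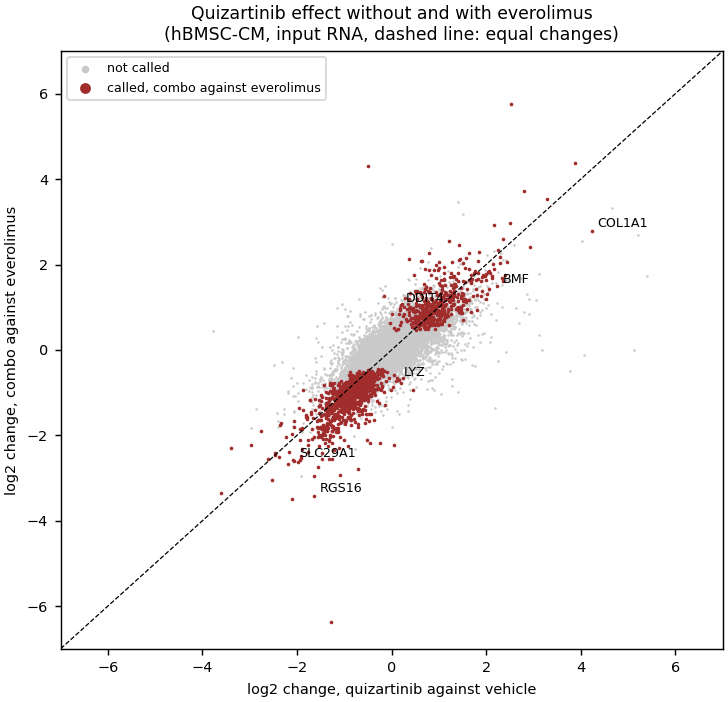
Log2 change of each gene tested by quizartinib on top of everolimus (vertical axis, combo against everolimus) and without everolimus (horizontal axis, quizartinib against vehicle), both in hBMSC-CM input RNA, with genes called in the first in red and equal changes as a dashed line. Called genes lie at the lower left and upper right with few exceptions, and RGS16 lies well under the line.

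A test of the difference itself found no gene. The quizartinib effect with everolimus minus that without passed for 0 of 12939 genes (0%) by edgeR's quasi-likelihood test, with 213 (1.65%) at an unadjusted p under 0.05, and for 2 genes by DESeq2 and 0 by limma voom. Medians of the lists were not tested for a difference. Replication genes had medians of -1.34 with and -1.27 without everolimus with 35 falls in each, ribosome biogenesis -1.13 and -0.82 with 34 and 22 falls, and nucleotide synthesis -0.99 and -0.88 with 14 and 11 falls. RGS16 had the largest difference of the named genes. It held 49.8, 54.6 and 63.4 CPM under vehicle and 13.9, 15.4 and 24.6 CPM under quizartinib, so that its level under everolimus was above the other 3 groups while combo and quizartinib alone lay near each other, and the effects of -3.42 and -1.64 differed by -1.78 (95% interval -2.70 to -0.86, unadjusted p 0.000383, edgeR adjusted p 1). BMF rose by 1.48 with and 2.24 without everolimus, a difference of -0.75 (95% interval -1.65 to 0.15), and BCL2L11 by 1.36 against 0.69 (edgeR adjusted p 0.08 without everolimus), a difference of 0.67 (95% interval -0.08 to 1.43). LYZ had -0.71 with and 0.15 without everolimus (difference -0.85, unadjusted p 0.0129, edgeR adjusted p 1), and DDIT4 1.05 and 0.19 (difference 0.86, unadjusted p 0.016, edgeR adjusted p 1). MHC class II genes had a median of 0.75 and 0 calls with everolimus and 1.40 and 5 rises without it. These intervals are wide, and a missed threshold does not show equal effects.

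In heavy polysome RNA the same drugs were compared. The paper reports a reduced RNA yield under combo, relative to vehicle in RPMI, and more so in polysomes than in input. Values here are relative to the other messages of a library, so a higher value need not mean more RNA. Combo differed from everolimus in 2275 genes (17.6%), 1386 higher (10.7%) and 889 lower (6.87%), with a median of 0.13 over all genes, and with the everolimus libraries averaged into 1 sample 201 passed, 33 higher and 168 lower. Of the genes called in input 882 were called in the same direction in polysomes, which is 61.4% of the input calls and 38.8% of the polysome calls, and 1, PDIA3, in the opposite one (-0.69 in input and 0.52 in polysomes), named after its value was seen. The count was 1199 without combo culture 1, and 1377, 1383 and 1174 without everolimus culture 1, 2 and 3. Rises did not always outnumber falls: 636 were higher and 741 lower without everolimus culture 1, and 914 and 958 without combo culture 3. They stayed in excess when any other of these cultures was left out, narrowly so without combo culture 1 (608 and 591). GINS2 had 69.8, 77.5 and 82.4 CPM under everolimus and 12.8, 22.4 and 17.4 CPM under combo (log2 change -2.13, edgeR adjusted p 8.73e-07), and RGS16 230, 237 and 257 CPM against 32.8, 32.9 and 33.5 CPM (-2.87, edgeR adjusted p 1.04e-06). Both were as clearly separated there as in input.

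Relative to the change in input, 0 genes (0%) passed in polysomes by edgeR's quasi-likelihood test, with 875 (6.76%) at an unadjusted p under 0.05, and 7 passed by DESeq2 and 0 by limma voom. The count changed to 5 with the replicate number as a block and to 440 (405 higher and 35 lower) with a block within each fraction. Input and polysome libraries were fitted as independent, though the paper describes them as whole lysates and polysome fractions of treated cells. No alternative modelled a culture that both fractions share, so the 0 genes do not show equal changes. Lists differed in their medians, and 6.87% of all genes were lower in polysomes. Cytosolic ribosomal protein messages, which had 0 calls and a median of 0.03 in input, were lower in polysomes for 20 of 38 (median -0.56), RPL8 going from 9303, 9419 and 9757 CPM to 4767, 6146 and 6014 CPM (-0.75, edgeR adjusted p 0.00914). Replication genes were lower for 26 of 42 (median -0.93) and ribosome biogenesis factors for 18 of 39 (-0.67). MCM2 showed no call there, with 117, 118 and 100 CPM against 112, 72.5 and 64.8 CPM (-0.43, edgeR adjusted p 0.414). On the rising side 17 of 35 lysosome and autophagy genes, 10 of 27 interferon-stimulated genes, 11 of 34 myeloid effector genes and 6 of 9 MHC class II genes were higher in polysomes, where 10.7% of all genes were. HLA-DRA had 17.4, 18.2 and 18.7 CPM under everolimus and 36, 53.9 and 55 CPM under combo (1.42, edgeR adjusted p 0.0364), and is named after its value was seen. MCL1 was higher there (0.70, edgeR adjusted p 0.00274), and its difference from input was 0.60 (unadjusted p 0.0123, edgeR adjusted p 0.553).

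**Figure D5:**
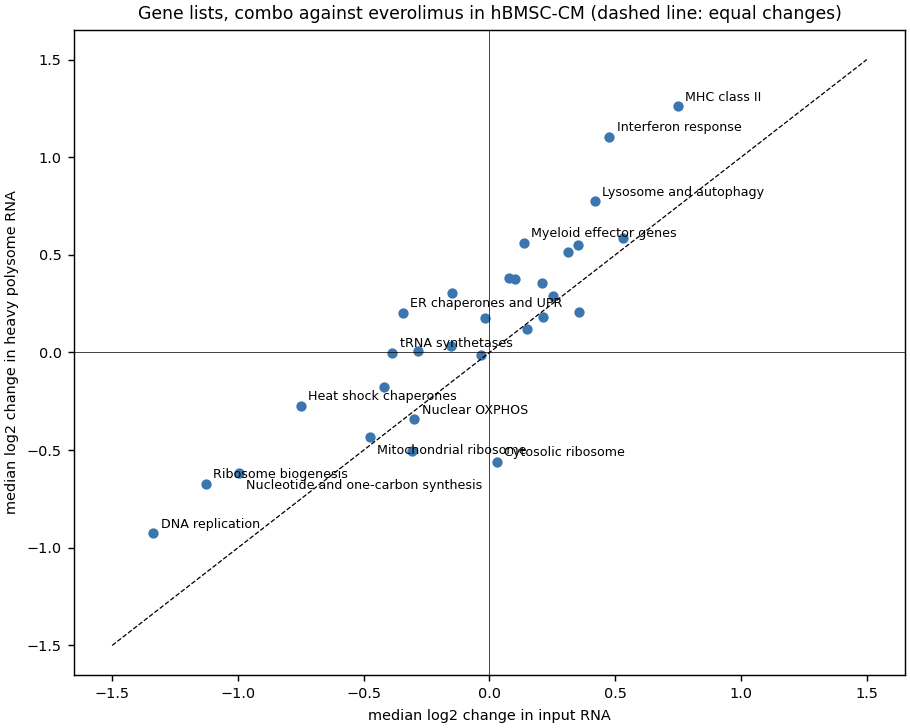
Median log2 change of each gene list between combo and everolimus in input RNA (horizontal axis) and in heavy polysome RNA (vertical axis), with equal changes as a dashed line. Cytosolic ribosome lies near 0 in input (0.03) and at -0.56 in polysomes, and MHC class II, interferon and lysosome lists lie above the line.

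Exons of another gene run antisense to those of several named genes, among them GINS2 (with GSE1), ETV4 (DHX8), BMF (BMF-AS1), BCL2L11 (MIR4435-2HG), CDK4 (TSPAN31), MYC (CASC11), MYBBP1A (SPNS2), COL1A1 and IDH3A. Whether counting used strand is not stated, so reads of such pairs cannot be told apart. NME1 overlaps the readthrough gene NME1-NME2 and SLC5A3 overlaps MRPS6 on the same strand.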

How the data were processed

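Poly(A) RNA of MOLM-13 cultures was sequenced paired-end in 42 libraries, 14 groups of 3 (7 conditions, input and heavy polysome RNA). Per the labels and the study's methods, the authors trimmed reads with BBDuk, aligned them with STAR 2.6.0a to hg38 and deposited raw read counts per Ensembl gene, with no normalization; strand use in counting is not given in the sources used here. The count table has 58884 gene rows, of which 25133 hold no counts. Rows with a shared name (150 names) were added together, giving 57353 names. The fit kept 12939 of them, with 99.8% of counts, whose average over libraries reached 1 count and 1 CPM.

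All 42 libraries were fitted with 1 mean per group in edgeR 4.0.16 (R 4.3.3; TMM scaling, robust quasi-likelihood, common biological coefficient of variation 0.279), p-values were adjusted by Benjamini-Hochberg over all genes kept, and calls were made at 0.05. DESeq2 1.42.0 and limma 3.58.1 (voom, limma being the study's tool) were alternatives, beside other scalings, filters, sample sets, replicate blocks and leaving out each culture. CPM values of genes are counts over the TMM-scaled library size, and summed marker levels use the raw library size. Totals were 19.4 to 38.8 M counts per library. Counting error weighs more for genes near 1 CPM, and more within the everolimus group, whose spread was the least.

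Replicate numbers paired quizartinib with vehicle cultures (correlations of deviations from the group means 0.801, 0.63 and 0.792) but not combo with everolimus (-0.0793, -0.129 and 0.00662). Members and gene lists (33) were chosen with earlier results of these data known. Named genes were the 10 largest rises and falls among called genes that averaged 10 CPM or more in the 6 libraries without overlap between the groups, the 3 called members of each list with the largest change and a mean of at least 5 CPM, and a set of 30 genes; others are marked where they appear. Motifs were searched in RefSeq promoter windows of 300 bases. List values have no test. Some single genes are not reported here.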

Additional observations from a re-analysis of the deposited data

How the results depend on the processing

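The 1437 calls between combo and everolimus in input RNA became 3719 with only the groups compared in the fit, 2904 with input libraries only, 2320 with the replicate block, 3290 with a replicate block within each fraction and 215 with the everolimus cultures averaged into 1 sample, and 803 to 1302 with 1 culture left out. DESeq2 gave 1792, limma voom 1769, RLE scaling 1399, library size 1285, no filter 1251 and the stricter filter 1262. Replicate numbers do not pair these groups: 0 of 6 samples correlated best with its own number. The test of the quizartinib effect with against without everolimus went from 0 to 2 (DESeq2), 8 (no filter) and 1 (replicate block within each fraction), and stayed at 0 with any culture left out. Polysome relative to input went from 0 to 7 (DESeq2), 19 (no filter), 5 (replicate block) and 440 (replicate block within each fraction), and to 0 to 6 with 1 culture left out. Polysome calls went from 2275 to 4477 with the block within each fraction, 201 with everolimus averaged, and 1174 to 2230 with 1 culture left out. Quizartinib against vehicle went from 1591 to 3343 (input libraries only), 2678 (replicate block) and 3803 (within each fraction), and 929 to 1596 with 1 culture left out. The cause of these shifts was not tested, but averaging leaves the everolimus group 1 sample, whose spread is assumed to be that of the other groups. Of 117 named genes in the fit 96 were called, 26 of them in every alternative, and 0 reversed; the everolimus average lost 70. The medians of 7 of 33 lists changed sign in some alternative, the mitochondrially encoded genes among them (-0.35 to 0.51).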
